A study of Mus musculus with 12 samples.

Results

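Brain tissue taken 7 days after traumatic brain injury (TBI) was compared with tissue of sham-operated mice by RNA sequencing, with weight on the genes that fell and on pathways other than arachidonic acid. The comparison used the 6 libraries of the 2018 batch, 3 sham and 3 TBI, out of 12 samples in the series, chosen by their group and batch labels. All animals were adult male wild-type C57BL/6J mice of 20 to 25 g. TBI mice received a controlled cortical impact, in which a piston strikes the exposed cortex, here with a 3-mm tip at 1.5 m/s to a depth of 1.5 mm for 100 ms. Sham mice had the identical operation but no blow. The tissue is labelled brain, and the study describes it as pericontusional, so each library is a mixture of cortex, any underlying structures caught in the dissection, vessels, meninges and invading blood cells.

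As background, a focal blow kills neurons at the impact site and leaves a border zone in which surviving neurons lose synapses. Microglia, the resident phagocytes of the brain, and macrophages from blood clear debris there, while astrocytes enlarge and wall off the core. Damaged myelin and membranes load these phagocytes with cholesterol, which they store or export, and neurons and glia make most brain cholesterol themselves because lipoproteins do not cross the blood-brain barrier.

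The deposited raw counts added up to 42929862 to 48684674 per mouse. Values below are CPM, counts scaled to a library of 1000000 with edgeR's TMM factors, or FPKM, which also divides by gene length, where levels of different genes are added or ranked. Of 35697 genes listed, 19536 passed edgeR's expression filter and were tested together with its quasi-likelihood test and Benjamini-Hochberg adjustment, and a gene is said to rise or fall where the adjusted p was under 0.05. Each fold change is the log2 of TBI over sham with its standard error, from 3 mice against 3. Nothing in the labels ties mice of the groups to each other, and p-values measure the spread between these 6 libraries. The root mean square log2 distance was 0.507 to 0.591 between mice of one group and 0.882 to 1.038 between mice of different groups. Even values made up 62.3% to 64.4% of all counts between 1 and 20, so a single count is not a separate molecule.

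Markers of the injury went with the labels. Gfap, the intermediate filament of astrocytes, stood at 202, 221 and 142 CPM in sham mice and at 2241, 2595 and 2616 CPM in TBI mice. Cd68, a lysosomal protein of phagocytes, stood at 8.97, 7.74 and 6.99 CPM against 77.5, 83.7 and 131 CPM. Rbfox3, which encodes the neuronal nuclear protein NeuN, stood at 334, 320.1 and 379 CPM in sham and at 250.3, 217 and 234 CPM in TBI mice. None of the 3 genes overlapped between the groups, which also held for 44.4% of all genes tested.

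Some libraries differed in the regions they held, and these values bear on several results below. Summed FPKM of 15 striatal markers was 416, 393 and 746 in sham mice and 245, 938 and 287 in TBI mice, so TBI mouse 2 and sham mouse 3 were high. Thalamic and habenular markers summed to 35.6, 37.7 and 40.3 FPKM in sham mice and to 50.3, 106 and 53.3 FPKM in TBI mice, again highest in TBI mouse 2. Choroid plexus markers summed to 866, 17 and 46.1 FPKM in sham mice and to 1030, 1150 and 958 FPKM in TBI mice, so that sham mouse 1 lay close to the TBI mice. Markers of fibroblasts and meninges summed to 79.6 to 109 FPKM in sham mice and to 187, 134 and 392 FPKM in TBI mice, highest in TBI mouse 3. The plot of marker lists in each mouse shows these departures beside lists in which the 3 mice of a group lie close together.

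**Figure D1:**
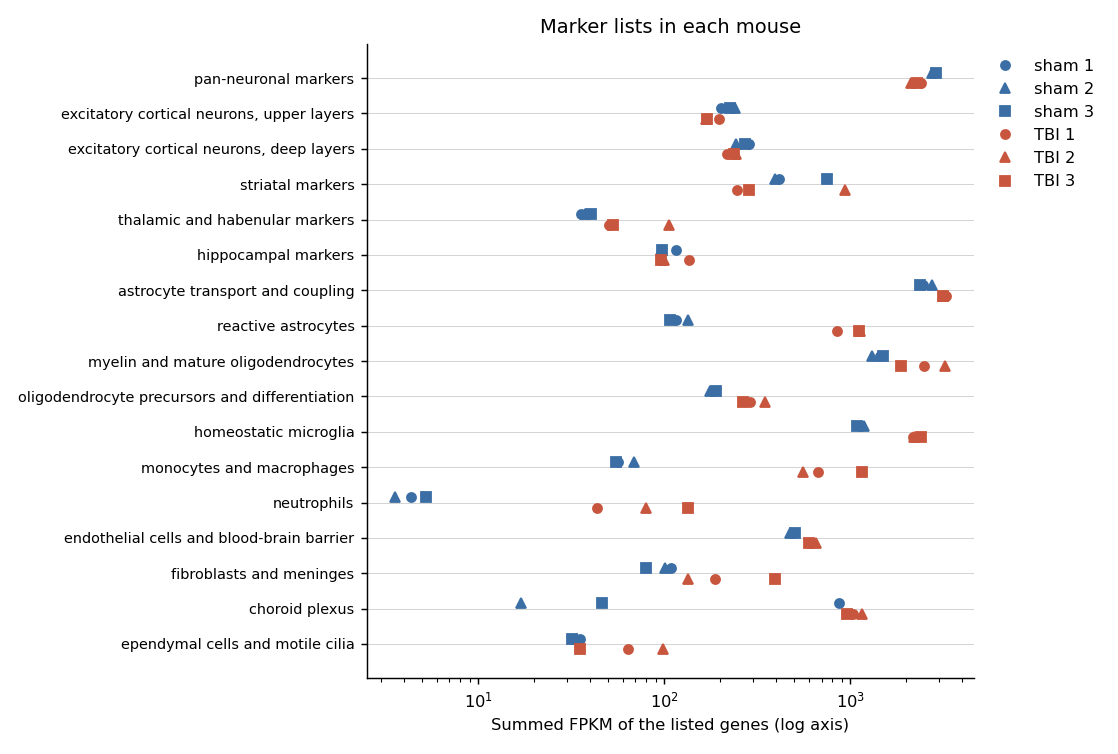
Summed FPKM of the genes in 17 marker lists (log axis), with 1 point per mouse, blue for sham and red for TBI, and the symbol giving the mouse number. Reactive astrocyte and microglial lists separate the groups, whereas the striatal list runs from 245 to 938 FPKM in TBI mice and the choroid plexus list from 17 to 866 FPKM in sham mice.

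Rises and falls differed in kind. A total of 5479 genes (28%) were called, 3286 (16.8%) higher and 2193 (11.2%) lower after TBI, while 39.6% had an unadjusted p under 0.05 (edgeR). The genes that rose did so by a median of 2.06-fold from a median of 6.79 CPM in sham mice, and 1706 of them (8.73% of genes tested) rose at least 2-fold. The genes that fell did so by a median of 1.34-fold from a median of 83.8 CPM in sham mice, and 131 (0.671%) fell at least 2-fold. At least 4-fold changes numbered 748 upward and 16 downward. Together the genes that rose held 94000 CPM in sham and 172000 CPM in TBI mice, and those that fell held 361000 CPM and 270000 CPM. Among the falling genes 76% changed by under 1.5-fold, against 24.8% of the rising ones.

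**Figure D2:**
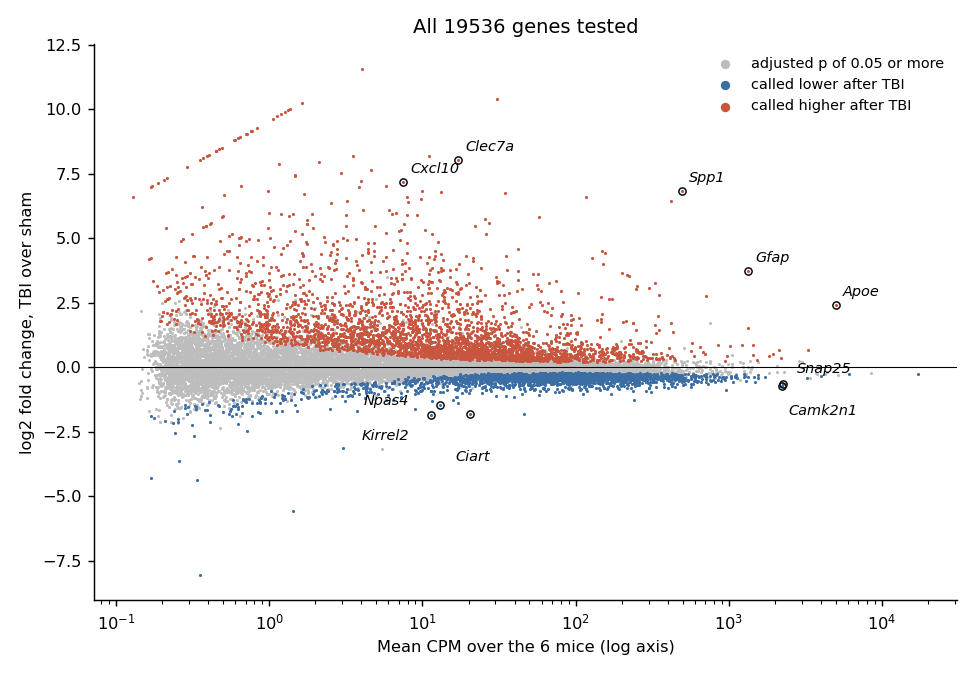
The log2 fold change of TBI over sham (y axis) against mean CPM over the 6 mice (x axis, log) for each gene tested, red where called higher, blue where called lower and grey otherwise. Rises reach far from 0 at low and middle levels, while falls form a narrow band at high levels that Camk2n1 and Snap25 share.

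Falls were commoner among long and highly expressed genes. When genes were split into 10 bins of equal size by annotated length, 2.61% fell in the shortest bin and 26.6% in the longest, while the share that rose was 9.06% and 12.5%. Median length was 5910 bases for genes that fell and 3740 bases for genes that rose. Across 10 bins of mean level, 1.38% of the lowest and 37.8% of the highest fell, whereas the share that rose peaked in the middle. Removing trends in length from the counts left the falls in the neuronal lists described below at 252, against 253 before. Falls of at least 2-fold numbered 172 in that fit, against 131, and ribosomal and energy genes moved as given below. Leaving out sham mouse 3 lowered the number of genes that fell to 1435, and leaving out sham mouse 1 or 3 lowered the number falling at least 2-fold to 77.

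**Figure D3:**
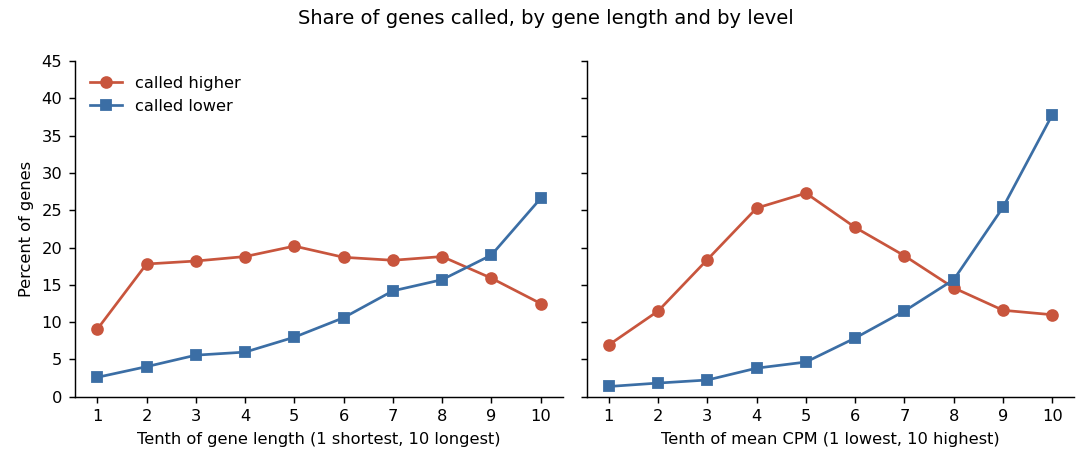
Percent of genes called higher (red) and lower (blue) in each of 10 equal bins of annotated gene length (left) and of mean CPM (right). The share called lower climbs from 2.61% to 26.6% with length and from 1.38% to 37.8% with level.

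The 15 largest falls among non-overlapping genes at 10 CPM or more in sham mice belonged to clock, sterol and activity-dependent genes and to genes of other roles. Groups did not overlap for 44.4% of genes tested, 19.8% with TBI lower. Kirrel2, an immunoglobulin-family adhesion protein related to nephrin, had the largest fall, from 14.2, 20.9 and 17.9 CPM in sham to 3.66, 4.78 and 6.31 CPM in TBI mice (-1.85 ± 0.22, adjusted p = 0.000422, edgeR). Ciart, a repressor in the circadian clock, fell from 28.9, 33.4 and 33.8 CPM to 6.3, 9.65 and 11.3 CPM (-1.82 ± 0.19). For both genes the highest TBI mouse lay well under the lowest sham mouse. Gucy2g, a receptor guanylyl cyclase, fell from 14.8, 10.5 and 14.9 CPM to 4.35, 2.07 and 6.69 CPM (-1.62 ± 0.36). Camk1g, a calcium and calmodulin-dependent kinase, fell from 49, 50.6 and 44.5 CPM to 19.5, 21.3 and 25.7 CPM (-1.11 ± 0.11). Igfn1, a large protein with immunoglobulin and fibronectin domains, and Hkdc1, a hexokinase family member, fell by 1.28 and 1.17 on the log2 scale. The fall of C730002L08Rik (-1.32) was lost without sham mouse 1, and that of Ovol2, a zinc finger transcription factor (-1.19), without sham mouse 2 or 3 or TBI mouse 1 or 2.

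**Figure D4:**
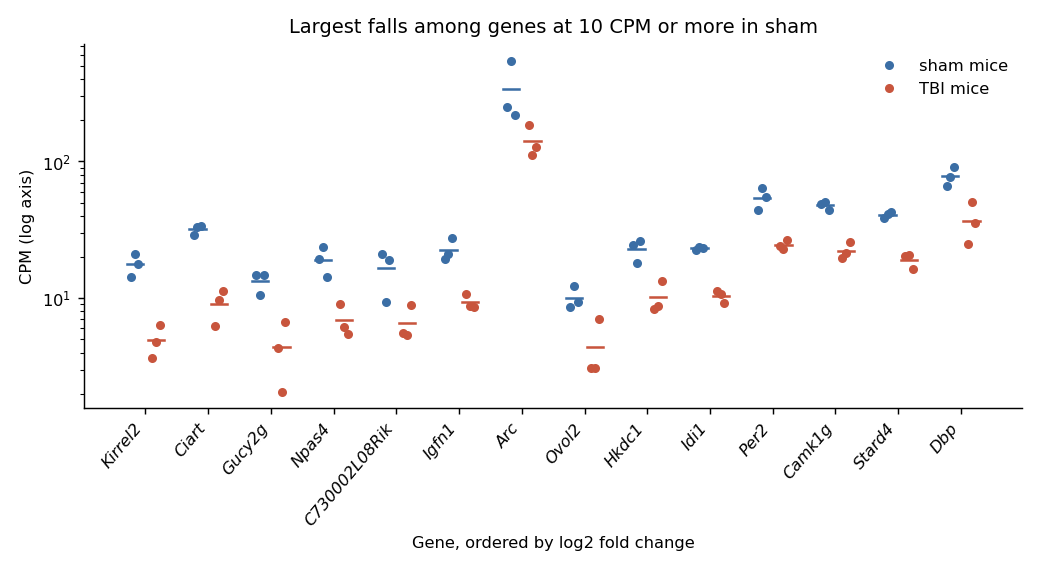
CPM (log axis) of 14 of the 15 genes with the largest falls, ordered by log2 fold change, with 1 point per mouse and a bar at the mean of the 3 mice. The sham and TBI points of each gene are apart, and Arc shows the widest spread among sham mice, from 217 to 548 CPM.

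By absolute level the largest falls included neuronal transcripts and mt-Co1, which is given with the energy genes below and whose call depended on each sham mouse. Camk2n1, an inhibitor of the synaptic kinase CaMKII, fell from 2574, 3046 and 2636 CPM to 1849, 1429 and 1747 CPM (-0.72 ± 0.12). Snap25, a SNARE protein that drives vesicle fusion, fell from 2889, 2606 and 2749.9 CPM to 2003, 1479 and 1836 CPM (-0.63 ± 0.12). Syt1, the calcium sensor of that fusion, fell by 0.59 on the log2 scale and Clstn1, a synaptic adhesion protein, by 0.52. TBI mouse 2 had the lowest value of all 4 genes. Kif5a, a kinesin of axonal transport, and Calm2, which encodes calmodulin, fell by 0.41 and 0.38, the first call being lost without sham mouse 1 or 2 and the second without sham mouse 1 or 3.

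Many neuronal genes fell, by modest amounts. Over 20 lists of neuronal genes, 605 different genes were tested, of which 253 fell, or 41.8% against 11.2% of all genes, and 39 rose. The falls numbered 186 without sham mouse 1, 181 without sham mouse 3 and 220 when scaled by library totals. The median log2 fold change of the 605 genes was -0.33, where all genes tested had 0.02. Summed CPM of the listed genes was 133000, 131000 and 134000 in sham mice and 110000, 99200 and 103000 in TBI mice. Of all genes tested, 37.8% fell in the highest of the 10 bins of level and 26.6% in the longest. The neuronal share was not compared with genes of like level. Pan-neuronal markers fell in 14 of 20 cases, or in 9 without sham mouse 1 and 8 without sham mouse 3, and none rose. Elavl4, an RNA-binding protein of neurons, fell from 143, 118 and 118 CPM to 90.1, 71.6 and 85.4 CPM (-0.62 ± 0.11). CPM values are relative to the rest of a library. In bulk tissue fewer neurons, less RNA per neuron and more RNA from other cells therefore cannot be told apart.

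**Figure D5:**
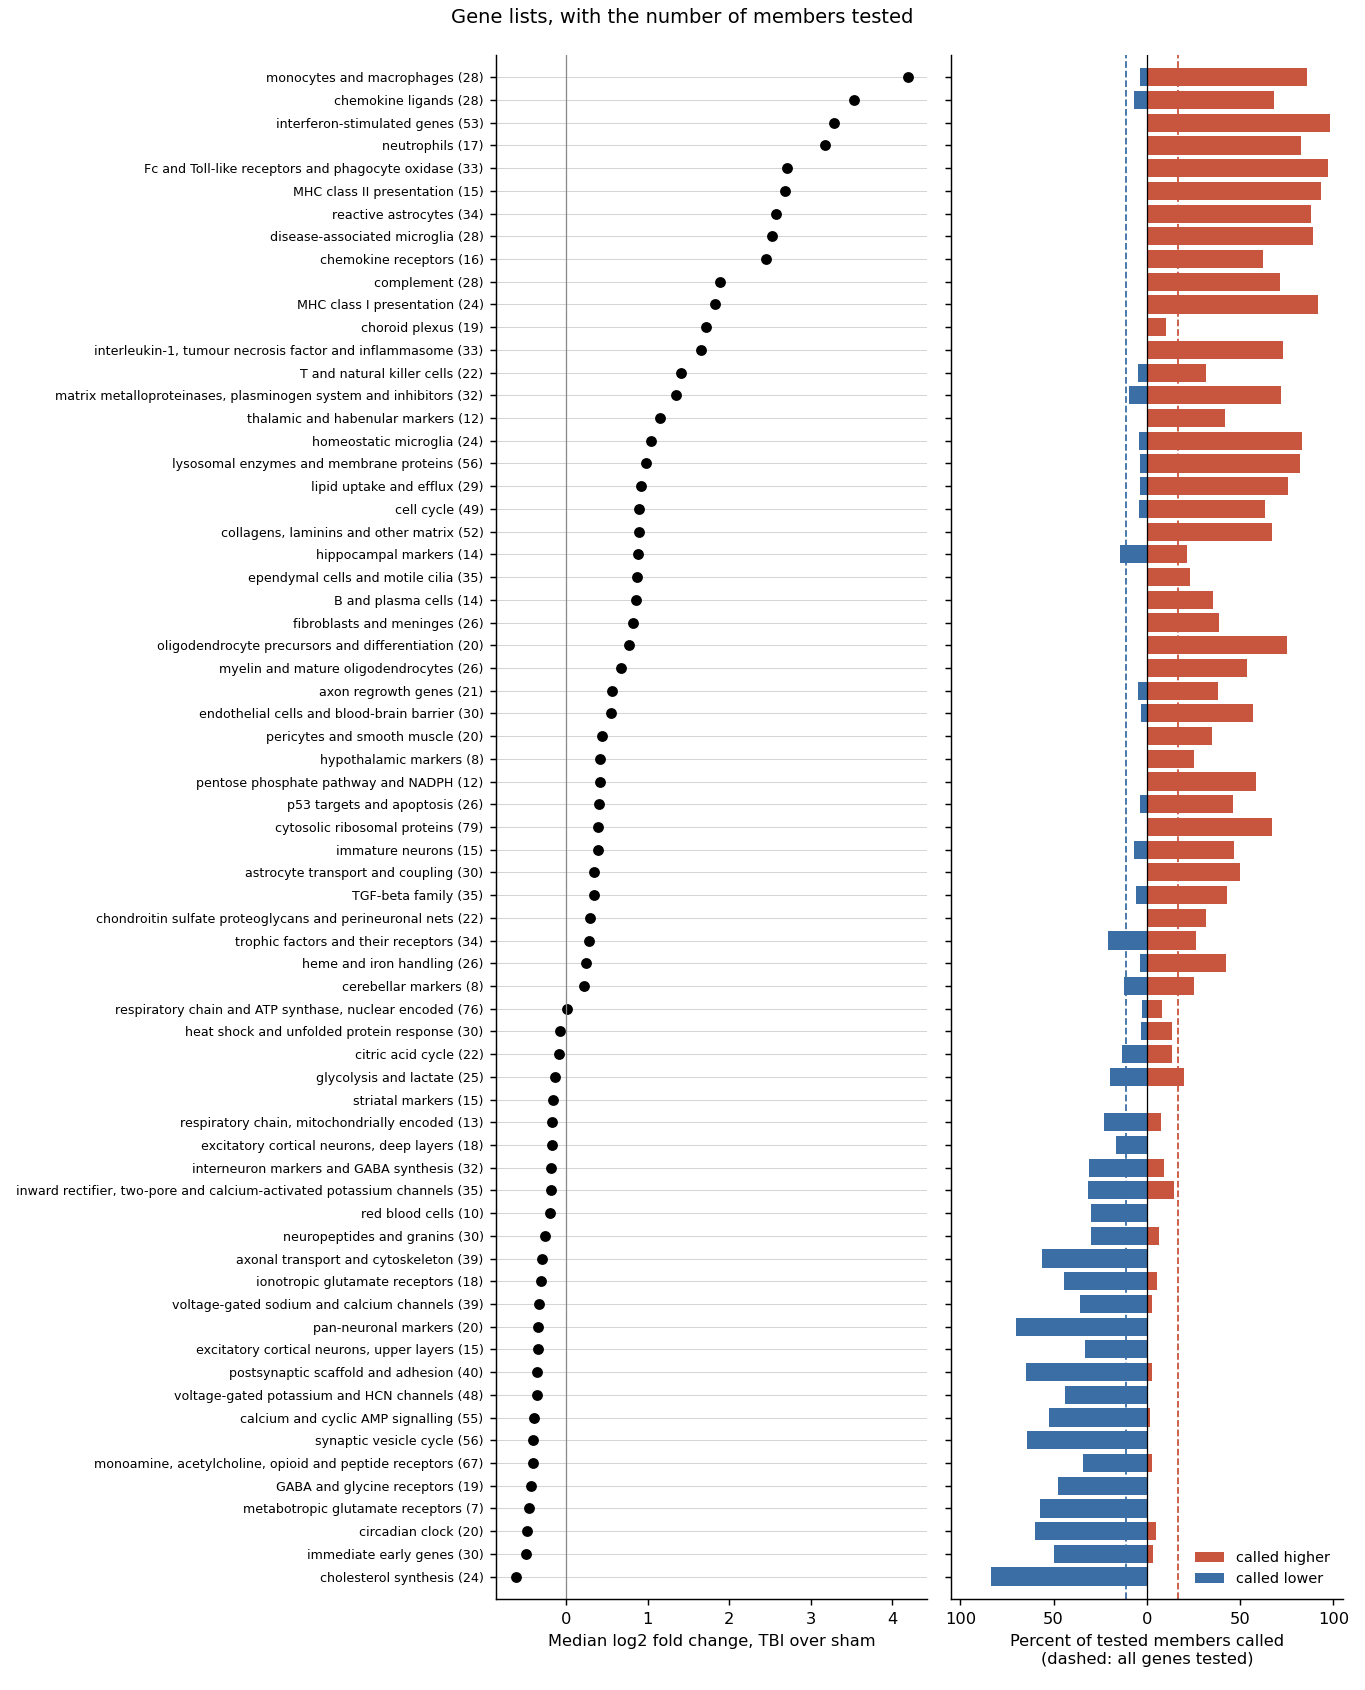
Median log2 fold change (left) and percent of tested members called higher, red, or lower, blue (right), for 67 gene lists, with the number tested in brackets and dashed lines at the shares over all genes, 16.8% and 11.2%. Monocyte, chemokine ligand and interferon lists lie highest, and cholesterol synthesis, immediate early genes and the circadian clock lie lowest.

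Some markers of cortical layers fell, and the deep-layer share lay near that of all genes. Among upper-layer markers 5 of 15 fell (33.3%), 2 without sham mouse 2 or 3 and 3 without TBI mouse 2 or 3. Of deep-layer markers 3 of 18 fell (16.7%), where 11.2% of all genes fell. Rasgrf2, an upper-layer exchange factor, fell by 0.82, and Tbr1, a deep-layer transcription factor, by 0.73. Etv1 and Cplx3, which mark layer 5 and subplate neurons, fell by 0.53 and 0.77. Pcp4 and Crym, also listed as deep-layer markers, were not called, and their TBI values were highest in mouse 2, at 39 and 118 CPM. Without TBI mouse 2, the mouse rich in striatal markers, 5 deep-layer markers fell.

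At the synapse, 36 of 56 genes of the synaptic vesicle cycle fell and none rose (median -0.41). Without sham mouse 1 or 3 the falls numbered 28 and 26. Sv2b, a vesicle glycoprotein, fell from 819, 657 and 689.9 CPM to 434, 353 and 478 CPM (-0.78 ± 0.13). Slc17a7, the vesicular glutamate transporter of cortex, stood at 1405, 1316 and 1432 CPM against 1116, 717 and 1152 CPM and missed the threshold (-0.48 ± 0.16, adjusted p = 0.0578, edgeR). On the postsynaptic side 26 of 40 scaffold and adhesion genes fell, or 20 without sham mouse 3. Among them were Cnksr2 (-0.79), Dlgap2 (-0.67) and Kalrn (-0.66), and Homer3 alone rose (1.50 ± 0.23). Camk2a and Nrgn, abundant dendritic transcripts, were not called, at -0.40 and -0.17.

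Receptor genes of both main transmitters fell in part. Of 18 ionotropic glutamate receptor genes 8 fell and 1 rose. Grin2c, an NMDA receptor subunit, was the one that rose (0.30 ± 0.09), a call lost when any sham mouse or TBI mouse 2 or 3 was left out. Those that fell included Gria2, which sets the calcium permeability of AMPA receptors, from 840, 773 and 770.2 CPM to 560, 501 and 537 CPM (-0.58 ± 0.08). Gria1, another AMPA subunit, had a log2 fold change of 0.09 ± 0.12 and was not called. Among 19 GABA and glycine receptor genes 9 fell and none rose (median -0.43). Gabrb2, a beta subunit of the GABA-A receptor, fell from 215, 180 and 189.5 CPM to 126, 109 and 99.8 CPM (-0.81 ± 0.10), and Gabra3, an alpha subunit, fell by 0.73. Metabotropic glutamate receptors fell in 4 of 7 cases, or 2 without sham mouse 1 or 3.

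Of 67 receptors for monoamines, acetylcholine, opioids and peptides 23 fell, 12 without sham mouse 1 and 14 without sham mouse 3, and 2 rose, or 4 without TBI mouse 3. Htr2a, the serotonin receptor of cortical pyramidal cells, fell from 65.6, 50.4 and 64.1 CPM to 20.9, 29.9 and 37.5 CPM (-1.03 ± 0.20). Chrm1, the main muscarinic receptor of cortex, fell by 0.63. Adrb3 and Chrna6 fell at levels under 3 CPM, and both calls were lost when any sham mouse was left out. Htr2b, a serotonin receptor (2.74 ± 0.48), and Chrnb4, a nicotinic subunit (3.18 ± 0.76), rose, in both cases from under 0.5 CPM.

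Ion channel genes fell in part. No voltage-gated potassium or HCN channel gene rose and 21 of 48 fell. Kcnv1, a silent potassium channel subunit, fell from 161, 142 and 148 CPM to 78.1, 66 and 75.2 CPM (-1.04 ± 0.09, adjusted p = 6.15e-05, edgeR), and Kcnh7 fell by 0.81. Among 39 voltage-gated sodium and calcium channel genes 14 fell and 1 rose. Cacng5, an auxiliary subunit, rose (0.96 ± 0.30), a call lost without sham mouse 1 or 2 or TBI mouse 2 or 3. Scn2a, the sodium channel of excitatory axons, stood at 478, 394 and 402 CPM against 251, 238 and 259 CPM (-0.77 ± 0.09). Scn1a, prominent in inhibitory neurons, fell by 0.72. Of 35 inward rectifier, leak and calcium-activated potassium channel genes 11 fell and 5 rose. Falls included Kcnj3, a channel opened by G proteins (-0.78), and Kcnt2, a channel opened by sodium (-0.81). Those that rose included Kcnj10, the potassium channel of astrocytes, from 164, 179 and 184 CPM to 316, 357 and 329.7 CPM (0.93 ± 0.08). Kcnk6 (1.58), Kcnk13, a leak channel of microglia (1.05), and Kcnn4, of immune cells (2.42), rose from levels under 7 CPM.

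Interneuron and peptide genes moved in both directions. Of 32 interneuron genes 10 fell, 5 without sham mouse 2 and 4 without sham mouse 3, and 3 rose. Sst, the peptide somatostatin, fell from 211, 208 and 224 CPM to 113, 149 and 157 CPM (-0.62 ± 0.12), and Erbb4, the neuregulin receptor of interneurons, fell by 0.63. Pvalb was not called (-0.18 ± 0.18), and Calb2, which also marks thalamus and hippocampus, rose (1.32 ± 0.27) with its 2 highest values, 35.3 and 33 CPM, in TBI mice 2 and 3. Among 30 neuropeptide and granin genes 9 fell and 2 rose, or 1 without sham mouse 1 or 3. Vgf, a secreted precursor induced by activity, fell from 378, 365 and 377 CPM to 221, 229 and 256 CPM (-0.67 ± 0.08), and Pcsk1, a protease that cuts peptide precursors, fell by 0.85.

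Calcium and cyclic AMP signalling genes fell in 29 of 55 cases, 18 without sham mouse 1 and 19 without sham mouse 3. Camkk2, a kinase upstream of other calmodulin kinases, fell from 365, 358 and 423 CPM to 232, 205 and 218 CPM (-0.81 ± 0.09), and Camk4, a nuclear calmodulin kinase, fell by 0.80. Itpka, which phosphorylates inositol trisphosphate in spines, fell by 0.71. Adcy7, the adenylyl cyclase of blood cells and microglia, rose (1.30 ± 0.20).

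Immediate early genes, which neurons switch on within minutes of firing, fell in 15 of 30 cases, or 9 without TBI mouse 2, with a median of -0.50. Npas4, a transcription factor induced by calcium entry, fell from 19.2, 23.5 and 14.4 CPM to 9.04, 6.18 and 5.48 CPM (-1.46 ± 0.23). Egr1 fell from 269.9, 382 and 275 CPM to 158, 142 and 189.9 CPM (-0.92 ± 0.15). Arc, which acts at the synapse, was at 249, 548 and 217 CPM in sham mice and 184, 111 and 127 CPM in TBI mice (-1.26 ± 0.34), and its call was lost without TBI mouse 2 or 3. Sham mouse 2 had the highest value of Npas4, Egr1, Arc and Junb. Nr4a1 fell by 0.88 and Bdnf, a growth factor for synapses, by 0.60, the latter not without sham mouse 1 or TBI mouse 2. Jun was the exception and rose, from 37.4, 57 and 41.2 CPM to 76.2, 61.7 and 61.4 CPM (0.56 ± 0.16), a call lost without sham mouse 1 or 3 or TBI mouse 1. Fos itself was not called.

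The cyclic AMP response element, the letters TGACGTCA on either strand, was searched in RefSeq promoter windows of 300 bases, of which 250 lie before the start. It stood in 1.79% of 32851 windows, in 3.16% of 13262 tested genes with a window, in 4.17% of those that fell and in 2.02% of those that rose. Of 11 called immediate early genes with a window, 1 held it. This was Dusp1, a phosphatase that switches off MAP kinases, which fell from 59.6, 70.9 and 48.1 CPM to 35.4, 34.5 and 43.6 CPM (-0.65 ± 0.15). The bases before its start (GRCm38.p6, chr17:26508473-26508722, minus strand) are shown with the element in capitals, because Dusp1 is the called member of the list that holds it.
Dusp1: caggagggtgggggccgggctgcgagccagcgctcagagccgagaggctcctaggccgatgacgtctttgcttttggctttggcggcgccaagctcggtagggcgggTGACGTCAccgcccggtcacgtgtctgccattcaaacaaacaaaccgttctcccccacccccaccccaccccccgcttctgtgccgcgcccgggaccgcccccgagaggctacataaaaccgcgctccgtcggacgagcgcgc

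Axonal genes and genes of axon regrowth moved in part. Of 39 genes of axonal transport and cytoskeleton 22 fell, but 9, 12 and 11 did without sham mouse 1, 2 or 3 and 14 without TBI mouse 2. Map1b, a microtubule protein of axons, fell from 918, 772 and 778 CPM to 618, 608 and 599 CPM (-0.43 ± 0.09), and Kif21a and Kif3a, both kinesins, fell by 0.46 and 0.42. Among 21 genes known from regrowing axons 8 rose, 1 fell and the others were not called. Atf3, a transcription factor of injured neurons, rose from 1.11, 1.64 and 1.39 CPM to 8.8, 10.6 and 10.1 CPM (2.82 ± 0.20). Sprr1a, which promotes outgrowth (4.99 ± 0.61), and Gal, the peptide galanin (4.29 ± 0.67), rose from a sham mean under 0.1 CPM to between 1 and 2 CPM. Gap43, of growth cones, was not called (-0.24 ± 0.18), and Stmn2, a microtubule regulator, was the one that fell (-0.35 ± 0.11), a call lost when any sham mouse or TBI mouse 2 was left out. Without TBI mouse 3, 2 genes fell.

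Genes of immature neurons rose in 7 of 15 cases and 1 fell, or 2 without TBI mouse 1. Nnat, expressed in developing brain, rose from 96.7, 130.1 and 75.6 CPM to 178, 212 and 164 CPM (0.87 ± 0.18). Dcx, a microtubule protein of migrating neurons, fell from 39.7, 36.6 and 39.7 CPM to 28, 29.9 and 31 CPM (-0.38 ± 0.08), a call lost when length trends were removed. Trophic factors and their receptors rose in 9 and fell in 7 of 34 cases, or 26.5% and 20.6% against 16.8% and 11.2% of all genes. Gfra1, a receptor for glial cell line-derived factor, rose by 0.94 and Nrg3, a neuregulin, fell by 0.69. Without sham mouse 2 these counts were 4 and 4, 5 rose without sham mouse 3, and 3 fell without sham mouse 1.

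Most genes of cholesterol synthesis fell. Of 24 genes 20 fell and none rose, with a median of -0.62, and 17 to 19 fell when any one mouse was left out. The falls ran through the pathway. Hmgcs1, which makes HMG-CoA, fell from 218, 204 and 195 CPM to 104, 120.1 and 118 CPM (-0.85 ± 0.08, adjusted p = 0.000137, edgeR). Idi1, an isomerase of the isoprenoid steps, fell from 22.7, 23.6 and 23.2 CPM to 11.3, 10.8 and 9.22 CPM (-1.15 ± 0.11). For both genes the 3 mice of a group lay close together and the groups were far apart. Insig1, which holds the sterol sensor in the endoplasmic reticulum, fell by 0.94, and Srebf2, the transcription factor that drives these genes, fell from 249, 237 and 250.1 CPM to 161, 167 and 156 CPM (-0.60 ± 0.07). Stard4, a carrier that moves sterol between membranes, fell from 38.7, 41.3 and 42.7 CPM to 20.4, 20.5 and 16.4 CPM (-1.10 ± 0.11). Fdps, which makes farnesyl diphosphate, had only 16 to 59 counts per mouse, and its call was lost in each of the 6 fits that left out 1 mouse.

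Most uptake and efflux genes rose. Among 29 genes of lipid uptake, storage and efflux 22 rose and 1 fell, or 2 without TBI mouse 2, with a median of 0.92. Apoe, the main lipid carrier of the brain, gained the most reads of all genes, from 1569, 1705 and 1455 CPM to 7833, 8412 and 9176 CPM (2.43 ± 0.10). Msr1, a scavenger receptor, rose from 0.355, 0.303 and 0.295 CPM to 9.47, 11.1 and 24 CPM. Plin2, which coats lipid droplets, rose by 3.71 and Apoc1 by 5.21, and TBI mouse 3 had the highest Plin2 and Msr1.

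A form of the sterol regulatory element, the letters TCACNCCAC on either strand, was searched in the same windows after the values were seen. It stood in 1.24% of all windows and, counting a gene where any of its windows held it, in 1.44% of tested genes. By call the gene shares were 1.87% of those that fell, 1.74% of those that rose and 1.28% of those not called. Of 14 called cholesterol genes with a window, 1 held it. That gene was Hmgcs1, whose 250 bases before the start (GRCm38.p6, chr13:119690101-119690350, plus strand) are shown with the match in capitals as an example of a falling sterol gene.
Hmgcs1: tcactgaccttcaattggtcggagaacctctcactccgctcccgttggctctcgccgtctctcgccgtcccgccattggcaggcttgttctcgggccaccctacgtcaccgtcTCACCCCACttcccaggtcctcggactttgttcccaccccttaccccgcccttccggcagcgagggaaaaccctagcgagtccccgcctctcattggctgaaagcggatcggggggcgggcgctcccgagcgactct

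Most genes of the circadian clock fell. Of 20 genes 12 fell and 1 rose, with a median of -0.49, and 10 to 12 fell when a mouse was left out. The clock runs on activators (Clock, Arntl, Npas2) that switch on their own repressors and a set of output factors. On the repressor side Per2 fell from 43.9, 63.8 and 55.4 CPM to 24.1, 22.9 and 26.6 CPM (-1.15 ± 0.14), in addition to Ciart. Among output factors Dbp fell from 66.7, 77.2 and 90.5 CPM to 24.9, 50.2 and 35.6 CPM (-1.08 ± 0.23), with TBI mouse 2 nearest to sham. Its relatives Tef and Hlf fell by 0.47 and 0.50. Nfil3, which binds the same sites as Dbp and represses, rose (0.82 ± 0.23), a call lost without sham mouse 1 or 3 or TBI mouse 1 or 3. Chosen after their values were seen, the activators Arntl (0.31), Clock (-0.17) and Npas2 (-0.01) were not called. The hour at which tissue was taken is not given in the sources used here. An E-box, the letters CACGTG, also searched after the values were seen, stood in 10.7% of tested genes with a window and in 4 of 11 called clock genes, namely Ciart, Cry1, Per1 and Tef.

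Energy genes showed no common direction, although removing length trends gave more falls. Nuclear genes of the respiratory chain had a median of 0.00 over 76 genes, with 6 rises and 2 falls, and 0 to 5 rises when 1 mouse was left out. The count of 6 became 2 without sham mouse 1 or 3 or TBI mouse 3, 3 without TBI mouse 1 and 0 without sham mouse 2. The 2 falls, Uqcrc2 (-0.25) and Cycs (-0.29), became 1 without sham mouse 1 and 0 without sham mouse 3 or TBI mouse 1 or 2. Of 13 mitochondrially encoded genes 3 fell, mt-Co1 from 19843, 18609.6 and 18170.4 CPM to 15866, 15752 and 15509 CPM (-0.27 ± 0.08), mt-Nd1 (-0.27) and mt-Nd5 (-0.32). Each of these calls was lost when any sham mouse was left out, and the first pair also when scaled by library totals. With length trends removed 7 mitochondrially encoded genes fell and 1 rose, and of the 76 nuclear genes 4 fell and 0 rose. Counts on mitochondrial genes made up 5.58% to 5.98% of a sham library and 4.88% to 5.2% of a TBI library. Another member, mt-Co3, rose (1.57 ± 0.29) but had 1627 to 6737 counts per mouse against 161429 or more for mt-Nd2, and nuclear copies of mitochondrial genes can take its reads, so its value is uncertain.

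In glycolysis 5 of 25 genes rose and 5 fell, 20% each, where 16.8% of all genes rose and 11.2% fell. Some of the falls were forms that neurons use. Hk1, the hexokinase of brain, fell from 425, 397 and 405 CPM to 319.5, 289 and 346 CPM (-0.36 ± 0.08), and Slc2a3, the neuronal glucose transporter, and Slc16a7, the neuronal lactate importer, fell by 0.41 and 0.51. Hk2 and Hk3, the latter of myeloid cells, rose by 1.81 and 2.51. Slc16a1, the lactate transporter of glia and endothelium, rose from 30.1, 31.9 and 29.4 CPM to 61.9, 73.8 and 57 CPM (1.08 ± 0.10), and Slc16a3, which exports lactate, rose by 1.50. Without sham mouse 1 or 3 or TBI mouse 2 the falls numbered 3. The pentose phosphate pathway, which makes NADPH, rose in 7 of 12 genes and fell in none, led by Pgd (0.70), H6pd (0.67) and G6pdx, its entry enzyme (0.65 ± 0.09).

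Astrocyte genes rose in degrees that depended on the list. Of 34 genes linked to reactive astrocytes 30 rose, with a median of 2.57. Serpina3n, a secreted protease inhibitor, rose from 13.7, 13.1 and 14.9 CPM to 227, 393 and 269 CPM (4.41 ± 0.20), and Vim, an intermediate filament, from 36, 37.4 and 33.3 CPM to 288, 445 and 505.5 CPM (3.54 ± 0.20). Of 30 genes of astrocyte transport and coupling 15 rose, 8 without sham mouse 1 or 3, with a median of 0.34. Aqp4, the water channel of astrocyte endfeet, rose from 109, 130.5 and 94.3 CPM to 336, 405 and 345 CPM (1.70 ± 0.13), and Gja1, the gap junction protein connexin 43, rose by 1.03. Glul, glutamine synthetase, rose by 0.37, a call lost without sham mouse 1 or 3, and Aldoc and Sparcl1, also abundant in astrocytes, were not called (0.12 and 0.05).

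Microglial genes rose in both of their lists. Homeostatic microglial genes rose in 20 of 24 cases with a median of 1.03 and disease-associated ones in 25 of 28 cases with a median of 2.53. Cx3cr1, the fractalkine receptor of microglia, rose from 47.1, 45.6 and 40.5 CPM to 160.1, 167 and 173 CPM (1.91 ± 0.08), while its ligand Cx3cl1, made by neurons, fell by 0.32, a call lost without sham mouse 2 or 3 or TBI mouse 2. Clec7a, a receptor for beta-glucan, rose from 0.133, 0.216 and 0.042 CPM to 30, 30.7 and 41.9 CPM (8.01 ± 0.32), the largest fold of the disease-associated list. Spp1, osteopontin, rose from 7.35, 10.4 and 8.02 CPM to 604, 656 and 1691 CPM and Gpnmb, a glycoprotein of lipid-laden phagocytes, from 2.2, 2.18 and 2.71 CPM to 235, 202 and 256 CPM. Mef2c, a transcription factor of microglia that excitatory neurons also use, fell from 1002, 909 and 794 CPM to 645, 432 and 627 CPM (-0.67 ± 0.16).

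Genes listed for monocytes, macrophages and neutrophils rose from low levels, and bulk tissue does not show which cells made them. Of 28 monocyte and macrophage genes 24 rose and 1 fell, the immediate early gene Nr4a1, with a median of 4.19. Lyz2, lysozyme, rose from 9.99, 10.5 and 8.14 CPM to 701, 553 and 1231.5 CPM, and Arg1, an enzyme of alternatively activated macrophages, from under 0.2 CPM to 8.39, 5.29 and 20.9 CPM. Neutrophil genes rose in 14 of 17 cases that could be tested of 24 listed. Of those tested, Cxcr2 and Trem1 had no count in sham mice and passed the filter only through the TBI mice. Genes with few sham counts, S100a9 among them, also needed the TBI mice to pass. The shares that rose in such lists can therefore partly reflect the filter. S100a9, a calcium-binding protein of neutrophil granules, rose from 0.266, 0.13 and 0.505 CPM to 8.82, 14.1 and 31.1 CPM, and Cxcr2, a receptor that guides neutrophils, had no count in sham mice and was at least 97.2-fold higher against a limit of 3 counts over the group. Setting genes without a sham count to this limit could not change a list median, because they lay above it either way. The effect of the filter was not tested. TBI mouse 3 had the highest Spp1, Lyz2, Arg1, S100a9 and Cxcr2. T and natural killer cell genes rose in 7 and fell in 1 of 22 cases that could be tested of 36 listed, at low levels, with Gzma, a granule protease, at 0.589 to 1.52 CPM in TBI mice. Trbc2, a T cell receptor chain, was the fall (-0.91 ± 0.26), a call lost without sham mouse 1 or 3 or TBI mouse 1 or 2. B cell genes rose in 5 of 14 cases that could be tested of 19 listed. Cd22, a lectin of B cells and microglia, rose from under 0.05 CPM to 6.4, 6.16 and 8.52 CPM (8.18 ± 0.45), while Ighm, the heavy chain of IgM, was not called (0.08 ± 0.21).

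Lysosomal genes rose in 46 of 56 cases and 2 fell. Ctsd and Ctsb, cathepsin proteases, rose from 190.2, 188 and 172 CPM to 1004, 1111 and 1594 CPM (2.75 ± 0.17) and by 1.53 on the log2 scale. Ids, a sulfatase with high neuronal expression, fell from 564, 547 and 479 CPM to 387, 377 and 404 CPM (-0.45 ± 0.08). Mcoln1, a lysosomal channel, fell by 0.26, a call lost without sham mouse 2 or 3 or TBI mouse 1 or 2, whereas its relative Mcoln2 had no count in sham mice and was at least 26.8-fold higher.

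Heme and iron genes rose in 11 of 26 cases and 1 fell. Hmox1, which degrades heme, rose from 5.37, 5.73 and 3.6 CPM to 62.5, 56.2 and 79.2 CPM (3.75 ± 0.20), and Ftl1, the light chain of the iron store ferritin, from 58, 66.1 and 58 CPM to 213, 177 and 256 CPM (1.82 ± 0.13). Tfrc, the transferrin receptor that brings iron in, was the fall, from 179.9, 111 and 159 CPM to 80.9, 86 and 87.8 CPM (-0.82 ± 0.15). Red cell genes did not rise. Hba-a1, an adult globin, fell from 72.7, 83.3 and 50.8 CPM to 35.8, 29.8 and 47.1 CPM (-0.88 ± 0.20), and Hbb-bs fell by 0.79, a call lost without sham mouse 1 or 2.

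Genes of innate sensing and antigen presentation rose in most cases. Complement genes rose in 20 of 28 cases and none fell. C4b rose from 11, 13.3 and 13.8 CPM to 214, 387 and 256 CPM (4.49 ± 0.23), and C3, the central component, from 0.843, 0.821 and 1.18 CPM to 22.3, 93.8 and 35.5 CPM (5.73 ± 0.58), both highest in TBI mouse 2. Of 24 class I and 15 class II presentation genes 22 and 14 rose. B2m, the light chain of class I, rose by 2.81 and H2-Aa, a class II chain, by 4.85. Fc and Toll-like receptors and the phagocyte oxidase rose in 32 of 33 cases, including Cybb, the catalytic subunit of the oxidase, from 0.666, 0.519 and 0.694 CPM to 21.5, 20.3 and 25.4 CPM (5.16 ± 0.18). Chemokine ligands rose in 19 of 28 cases that could be tested of 35 listed, and 2 fell, Ccl27a (-0.39) and Cx3cl1. Of the interleukin-1, tumour necrosis factor and inflammasome list 24 of 33 genes rose. Il33, an alarmin of oligodendrocytes and astrocytes, rose from 40, 39.9 and 41.4 CPM to 64, 90.6 and 66.9 CPM (0.87 ± 0.13), against 4.37 for Il1b, which stood at 2.15, 4.27 and 9.43 CPM in TBI mice.

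Interferon-stimulated genes rose with 1 exception. Of 53 genes 52 rose, 98.1% against 16.8% of all genes, with a median of 3.29, and 49 to 53 rose when 1 mouse was left out. This list, like the others, was written with earlier results of these data known. Members with few sham counts passed the filter only through the TBI mice. Bst2, which tethers virus particles to the membrane, rose from 4.04, 3.26 and 2.74 CPM to 50.6, 80.2 and 112 CPM (4.59 ± 0.30). Cxcl10, a chemokine for T cells, rose from 0.133, 0.086 and 0.084 CPM to 7.54, 16.3 and 20.5 CPM (7.16 ± 0.49), and Zbp1, a sensor of nucleic acid, from under 0.1 CPM to 4.53, 7.9 and 11.3 CPM. TBI mouse 1 was the lowest of the TBI mice for these 3 genes. For each the groups did not overlap, as for 24.6% of genes tested with TBI higher.

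The core of the interferon-stimulated response element, the letters GAAANNGAAA on either strand, stood in 3.44% of the 32851 promoter windows. Among tested genes with a window it was held by 6.96% of those that rose, 3.74% of those that fell and 2.98% of those not called, and by 22 of 37 called interferon-stimulated genes (59.5%). In Bst2 the motif occurs as a pair of overlapping matches, in capitals within the 250 bases before the start (GRCm38.p6, chr8:71537473-71537722, minus strand).
Bst2: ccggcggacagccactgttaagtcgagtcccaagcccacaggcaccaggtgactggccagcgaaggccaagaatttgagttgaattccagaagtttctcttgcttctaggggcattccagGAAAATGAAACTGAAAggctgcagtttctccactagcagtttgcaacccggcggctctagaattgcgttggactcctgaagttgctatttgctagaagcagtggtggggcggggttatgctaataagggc

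For 6 other genes, chosen after their values were seen as familiar members, a match is shown on the strand that reads GAAA first. It is the match nearest the start that leaves room for 10 bases on each side before the start. The match is in capitals, to let the shared core be compared. Oas1a also holds an overlapping match nearer the start, and Isg15 an overlapping match farther from it, neither of them marked.
Cxcl10 (chr5:92349083-92349112, minus strand): tcacgctttgGAAAGTGAAActtacctcac
Oas1a (chr5:120907526-120907555, minus strand): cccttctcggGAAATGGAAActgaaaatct
Isg15 (chr4:156200865-156200894, minus strand): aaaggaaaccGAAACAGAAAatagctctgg
Rsad2 (chr12:26456553-26456582, plus strand): tctgttttctGAAAATGAAAgttggaccag
Ifit1 (chr19:34640794-34640823, minus strand): tcagcagtgaGAAACTGAAActgagactgg
Stat2 (chr10:128270266-128270295, minus strand): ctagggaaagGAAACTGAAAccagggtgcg
Ifit1 and Stat2 share the same 10 letters of the core, and their log2 fold changes were 3.77 and 0.81. The other 4 were 7.16 for Cxcl10, 5.29 for Oas1a, 4.51 for Isg15 and 4.13 for Rsad2.

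Oligodendrocyte genes rose in part. Of 20 genes of precursors and differentiation 15 rose (median 0.77), and of 26 myelin and mature oligodendrocyte genes 14 rose, 8 without sham mouse 1, 7 without sham mouse 2 and 22 without TBI mouse 3. Enpp6, a mark of newly forming oligodendrocytes, rose from 9.28, 7.39 and 7.37 CPM to 23.9, 30 and 17.2 CPM (1.57 ± 0.20). Apod, a lipid carrier, rose from 128, 149 and 139 CPM to 501, 615 and 539 CPM (1.99 ± 0.10). Mbp, a structural protein of myelin, was at 2514, 2447 and 2665 CPM in sham mice and at 4295, 4983 and 2909 CPM in TBI mice (0.68 ± 0.17), a call lost when any sham mouse was left out. TBI mouse 3 had the lowest value of Enpp6 and Mbp among TBI mice and mouse 2 the highest of all 3, as it did for striatal and thalamic markers, whose part in this was not tested.

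Vascular and meningeal genes rose in part. Among 30 endothelial genes 17 rose and 1 fell, with 11 rises without sham mouse 1 or TBI mouse 2 and 9 without sham mouse 2, and 2 falls without TBI mouse 2. Cldn5, a tight junction protein, rose from 8.37, 10.3 and 12.2 CPM to 24.7, 27.9 and 14.8 CPM (1.13 ± 0.23), and Mfsd2a, the lipid transporter of the barrier, fell (-0.62 ± 0.17), a call lost without sham mouse 2 or 3. Pericyte and smooth muscle genes rose in 7 of 20 cases, 3 without sham mouse 1 or 2 and 4 without sham mouse 3. Fibroblast genes rose in 10 of 26, 6 without sham mouse 3 and 16 without TBI mouse 2. Col1a1, of fibrillar collagen, rose from 24.8, 21.7 and 25.9 CPM to 117, 35.2 and 168 CPM (2.15 ± 0.45), lowest in TBI mouse 2, a call lost with edgeR's robust fit.

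Extracellular matrix genes rose in 35 of 52 cases and none fell. Thbs1, thrombospondin 1, rose from 3.44, 2.38 and 3.49 CPM to 27.5, 22 and 85.3 CPM (3.85 ± 0.51), and Sparc, a matrix protein of glia, from 219.6, 265 and 241 CPM to 562, 655 and 668 CPM (1.38 ± 0.10). Chondroitin sulfate proteoglycan and net genes rose in 7 of 22 cases, 4 without sham mouse 1. Tnc, tenascin C, rose from 3.66, 3.29 and 3.14 CPM to 10.7, 11.2 and 12 CPM (1.75 ± 0.14), and Ncan, neurocan, was not called (0.16 ± 0.07). Matrix protease, plasminogen and inhibitor genes rose in 23 of 32 cases and 3 fell, or 1 without TBI mouse 2 or when scaled by library totals. Serpini1, neuroserpin, fell from 402, 332 and 414 CPM to 219, 176 and 262 CPM (-0.80 ± 0.15). Mmp13, a collagenase, stood at 4.47, 0.246 and 61.1 CPM in TBI mice, and its call was lost when any sham mouse was left out.

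Regional lists depended on single libraries. No striatal marker was called among 15, but 14 fell without TBI mouse 2. Ppp1r1b, the striatal phosphatase inhibitor DARPP-32, stood at 395, 383 and 722 CPM in sham and at 250.9, 845 and 277 CPM in TBI mice. Choroid plexus genes rose in 2 of 19 cases, in 18 without sham mouse 1, in 1 without any one of the TBI mice and in 0 without sham mouse 2 or 3. Ttr, the thyroid hormone carrier made there, stood at 1006.5, 12 and 46.9 CPM in sham and at 1161, 1256 and 1077 CPM in TBI mice. Thalamic and habenular markers rose in 5 of 12 cases, 3 when any sham mouse was left out, with Prkcd at 7.44, 7.76 and 17.1 CPM against 35, 93 and 37.9 CPM (2.36 ± 0.44). Of 35 ependymal and cilia genes 8 rose (22.9%), 5 without sham mouse 3 and 20 without TBI mouse 3. Hippocampal markers rose in 3 and fell in 2 of 14 cases (21.4% and 14.3%). Without TBI mouse 2 and 3 there were 6 and 7 rises, and without sham mouse 2 there was 1 fall. Over all genes tested 16.8% rose and 11.2% fell, near these shares.

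Genes of growth and division rose in numbers that depended on single sham mice. Cytosolic ribosomal protein genes rose in 53 of 79 cases with none lower, a median of 0.39, and in 27 without sham mouse 3. With length trends removed 38 of them rose. Rps9 rose from 172, 180.5 and 162 CPM to 285, 280.3 and 334 CPM (0.80 ± 0.09). Cell cycle genes rose in 31 of 49 cases and 2 fell, with 20 rises without sham mouse 2 or 3 and 4 falls without TBI mouse 3. Top2a, a topoisomerase of dividing cells, rose from 5.11, 4.47 and 5.24 CPM to 11.1, 17.2 and 24.8 CPM (1.84 ± 0.26), while E2f1 and Ccne1, of entry into S phase, fell by 0.65 and 0.55. Among 26 p53 and apoptosis genes 12 rose, 7 without sham mouse 3, including Eda2r, a receptor of the tumour necrosis factor family (2.97 ± 0.43), and Zmat3, a p53 target, fell (-0.42 ± 0.06). TGF-beta family genes rose in 15 of 35 cases, 9 without sham mouse 2, and 2 fell. The falls were Bmp3, a ligand (-0.87 ± 0.21), a call lost without sham mouse 1, and Bmpr2, a receptor (-0.31 ± 0.07), a call lost without sham mouse 3. Tgfbr2, the type II receptor, stood at 13.7, 13.4 and 15.6 CPM against 56.7, 64.5 and 64.6 CPM (2.12 ± 0.10).

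Heat shock and unfolded protein genes showed 4 rises and 1 fall among 30, or 13.3% and 3.33% against 16.8% and 11.2% of all genes. There was 1 rise without sham mouse 1 or 3 and 8 without sham mouse 2, and 2 falls without sham mouse 2 or 3 or TBI mouse 1. Hsp90aa1, a cytosolic chaperone, fell from 1437, 1459.8 and 1383 CPM to 1178, 1037 and 1073 CPM (-0.38 ± 0.08), and Hspb8, a small chaperone, rose by 1.32. Of the 67 lists 25 held no gene that fell and 11 none that rose, and medians lay above that of all genes in 41 lists and below it in 26. In all, 319 of the 2193 falling genes and 682 of the 3286 rising genes belonged to a list.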

How the data were processed

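RNA from brain tissue of 3 sham and 3 TBI mice was sequenced as read pairs. For every gene and mouse the authors deposited a raw count, a whole number that was not normalized, and an FPKM, which matches the count divided by the library total and 1 length per gene. The submitters' processing notes name HISAT2, featureCounts, Subread and DESeq2 and the build GRCm39, without settings. Strand use in counting is not given in the sources used here. The count and TPM tables of the other experiment in the series were not used, and 0 columns of the tables used were left out. The test was edgeR 4.0.16 under R 4.3.3, with filterByExpr, TMM factors, glmQLFit and glmQLFTest on 19536 genes, and the script was first tested on simulated data. The standard error is the size of the log2 fold change over the square root of F. Symbols came from a gene name table (34808 of 35697 identifiers), lengths from the ratio of count to FPKM, and promoters from RefSeq on GRCm38.p6 by symbol (13262 tested genes). The sterol and E-box motifs and the interferon sites were chosen after seeing the data. Members and lists were chosen with earlier results of these data known. The 67 lists held 1891 different genes, 1812 of them tested, and 6 listed symbols had no match. Listed genes that failed the filter were not counted as cases. A gene with no count or few counts in sham mice could pass only through the TBI mice, which favours rises among low genes.

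Genes were named by rule: the 15 largest log2 falls among called, non-overlapping genes at 10 CPM or more in sham, the 10 largest CPM drops, the 10 largest log2 rises at 10 CPM or more in TBI, the 10 largest CPM gains, up to 3 genes by FPKM and 3 by change in each direction per list (all called where 5 or fewer), Gfap, Cd68 and Rbfox3, and a promoter example. The alternatives were DESeq2 1.42.0 and its size factors, library totals, other filters, a robust fit, limma 3.58.1 on log2(FPKM + 1) and log2(FPKM + 0.1), counts divided by 2, removed length trends, a replicate block and leaving out each mouse. Figures used Python 3.11.15 and matplotlib 3.10.9. A few items that the naming rule or the lists hold are not reported here.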

Additional observations from a re-analysis of the deposited data

How the results depend on the processing

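The number of genes called ranged from 3713 (limma on log2(FPKM + 1) without a filter) to 6225 (DESeq2), and the share of calls that were higher from 55.1% to 71.5%, against 60%. Scaling by library totals moved the median log2 fold change of all genes from 0.02 to 0.07. The genes that fell numbered 1057 with limma on log2(FPKM + 1) without a filter, and 1435 (without sham mouse 3) to 1971 when 1 mouse was left out. Falls of at least 2-fold were the least stable count. They numbered 11 and 51 with limma on log2(FPKM + 1) and on log2(FPKM + 0.1), 7 with the former without a filter, and 77 (without sham mouse 1 or 3) to 150 when 1 mouse was left out. Rises of at least 2-fold numbered 700 with limma on log2(FPKM + 1), 669 when unfiltered and 1190 with limma on log2(FPKM + 0.1), and the cause was not tested. Of 340 named genes that were called, 218 kept the call in each alternative run and 122 lost it in at least 1. The replicate numbers do not pair the mice (correlations of -0.023, -0.094 and -0.033 for the same number), and a replicate block gave 4337 calls, 62.3% of them higher. The p-values rest on 3 mice a group, and low genes such as those with no count in sham are known only to a limit.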
